A study of Homo sapiens with 6 samples.

Results

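Levels of 10 genes of the LIN28 axis and of the pluripotency factors were examined in 4 cell lines of atypical teratoid rhabdoid tumor (AT/RT), a malignant childhood brain tumor usually marked by loss of the chromatin remodeling gene SMARCB1. The members were taken by gene symbol as POU5F1, NANOG, SALL4 and KLF4 (pluripotency factors), LIN28A and LIN28B (the LIN28 proteins), and HMGA2, IGF2BP1, IGF2BP2 and IGF2BP3 (messages that let-7 is known to repress). They are 10 of the 36532 genes in the transcript tables. CHLA 02 and CHLA 05 were sequenced as a single library, while CHLA 04 and CHLA 06 each had a pair of technical replicates, which gives 6 libraries. No treatment is named for any line, and all were grown in DMEM:F12 medium with EGF and basic FGF (20 ng/mL each) and B-27 supplement (2%). Each line is 1 biological sample, so no test between lines was possible. In these bulk RNA samples, fewer cells of a type and less RNA per cell cannot be told apart. A TPM (transcripts per 1000000) is a level corrected for transcript length, and the gene value is the sum over its transcripts. Reads were recovered from the TPM values, and their number on transcripts was 10265899 in the shallowest and 20520229 in the deepest library. The paper states that none of these 4 lines expresses SMARCB1. SMARCB1 transcripts were present at 13.5 to 26.2 TPM, summed over all annotated forms. These levels do not show whether an intact message or protein was made.

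LIN28A and LIN28B are RNA-binding proteins that block the maturation of let-7, a family of small RNAs that silences growth-promoting messages and rises as cells differentiate. The precursors are bound mainly through a GGAG motif near the terminal loop, after which they can be tailed with uridine and degraded. The LIN28 genes are themselves let-7 targets, as are HMGA2, a chromatin protein of embryonic and tumor cells, and the IGF2BP family, which binds and stabilizes messenger RNA. POU5F1 (OCT4) and NANOG are core transcription factors of pluripotent cells, where SALL4 and KLF4 act with them.

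The mature sequences of let-7 are shown because they share the seed (bases 2 to 8, in capitals) by which targets are recognized. In RefSeq (GRCh38.p14) 12 precursor genes encode 9 different mature 5p forms, all with the seed GAGGUAG.
let-7a-5p: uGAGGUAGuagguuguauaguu
let-7b-5p: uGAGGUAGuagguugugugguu
let-7c-5p: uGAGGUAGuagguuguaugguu
let-7d-5p: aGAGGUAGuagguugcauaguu
let-7e-5p: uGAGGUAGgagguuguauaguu
let-7f-5p: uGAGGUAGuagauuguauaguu
let-7g-5p: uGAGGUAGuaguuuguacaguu
let-7i-5p: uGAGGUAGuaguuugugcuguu
miR-98-5p: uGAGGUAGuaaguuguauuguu

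Of the 12 precursor hairpins, 9 (75%) held GGAG on their own strand, against 43.4% of 1562 human hairpins of all kinds. The hairpins of MIRLET7A3, MIRLET7B and MIR98 were those without it. Mature let-7 was not measured by these libraries, so none of the levels below can be set against it.

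The complement of the seed, CTACCTC, was searched on the sense strand of 1 annotated 3′ UTR per gene, that of the most abundant transcript with such an annotation. No POU5F1 transcript of this kind had a read, so the longest was taken, and for NANOG a short transcript without an annotated 3′ UTR had a higher TPM. The motif occurred in 7 of the 10 members, at 16 positions in all, and in 10.7% of the 13214 genes with a mean of at least 1 TPM and an annotated 3′ UTR. The 7 members have 3′ UTRs of 1934 to 6701 bases, against a median of 1190.5 bases over all these genes. Among genes with a 3′ UTR of 0.8 to 1.25 times the length of the member's, 13.0% to 32.5% had a match. HMGA2, LIN28B and IGF2BP1 had 4 matches each. SALL4, LIN28A, IGF2BP2 and IGF2BP3 had 1 match each, and POU5F1, NANOG and KLF4 had none. Only 11 of the 13214 genes had 4 or more matches, and these 3 members were among them, together with TRIM71, NR6A1, HIC2, IGDCC3, LIMD2, SMC1A, HEMK1 and ZBTB37, which are named here after their counts were seen. Several members were chosen as known let-7 targets, so their matches are not independent evidence. A match is a description of the sequence, and these data do not show that it was bound.

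The 4 matches of HMGA2 are shown with the first match after the stop codon in each of the other 6 genes, 28 bases each as DNA of the transcribed strand, with the match in capitals (GRCh38).
HMGA2, chr12:65963298-65963325, plus strand: gccaacgttcgatttCTACCTCagcagc
HMGA2, chr12:65964533-65964560, plus strand: ccccactactcaataCTACCTCtgaatg
HMGA2, chr12:65964945-65964972, plus strand: ttgacttgcaaagacCTACCTCcagact
HMGA2, chr12:65965798-65965825, plus strand: aatcaaaacacactaCTACCTCttaagt
LIN28B, chr6:105078812-105078839, plus strand: acccggttgcaaagtCTACCTCatgcaa
LIN28A, chr1:26427348-26427375, plus strand: gcacagcctattgaaCTACCTCattttt
SALL4, chr20:51782918-51782945, minus strand: aaagctttaatttatCTACCTCatttat
IGF2BP1, chr17:49051061-49051088, plus strand: tgtgtgcgaagtaaaCTACCTCaaggta
IGF2BP2, chr3:185644215-185644242, minus strand: aacacacagaagaagCTACCTCaggtgt
IGF2BP3, chr7:23311790-23311817, minus strand: tgcatttttactcaaCTACCTCaggtat

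The first HMGA2 match began 21 bases after the stop codon and the first LIN28B match 44 bases after it. In IGF2BP1 the first match lay 1632 bases into a 3′ UTR of 6701 bases.

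**Figure D1:**
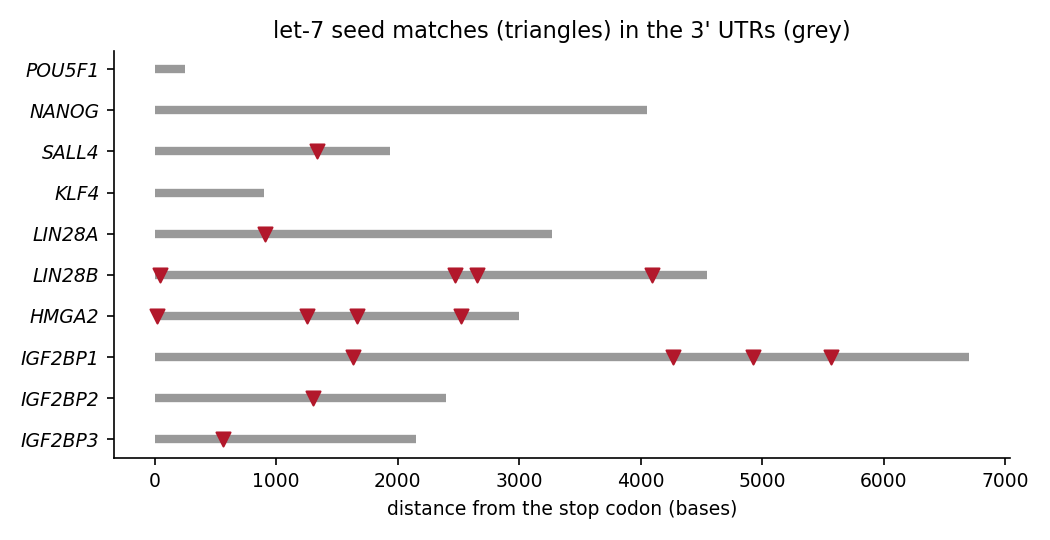
Position of let-7 seed matches (triangles) along the 3′ UTR of the most abundant transcript with an annotated 3′ UTR (grey bars; for POU5F1, where none had a read, the longest transcript), in bases from the stop codon. HMGA2, LIN28B and IGF2BP1 hold 4 matches each, and POU5F1, NANOG and KLF4 hold none.

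The levels separated the members into genes with few reads in every line and genes whose level depended strongly on the line. HMGA2 was in neither class, since it was high in every line and its spread stayed below 4-fold. At a limit of 1 TPM, 7 of the 10 members were detected in at least 1 line, 3 of them (KLF4, HMGA2 and IGF2BP2) in all 4. CHLA 02 expressed 7 members at this level, CHLA 04 and CHLA 06 expressed 6 each, and CHLA 05 expressed 3. POU5F1, NANOG and LIN28A were below 1 TPM in the mean of every line, although LIN28A was at 1.19 TPM in 1 of the CHLA 06 libraries. For 6 of the 10 members (SALL4, KLF4, LIN28B, IGF2BP1, IGF2BP2 and IGF2BP3) the highest and the lowest line differed at least 4-fold on the log2(TPM + 1) scale. The same spread was found in 22.4% of the 14827 genes with a mean of at least 1 TPM. Of the members, 7 passed this filter on low values and POU5F1, NANOG and LIN28A did not. The member next inside the limit was LIN28B, with a log2 difference of 2.85, and the one next outside was HMGA2, with 1.91. The spread of IGF2BP1 (6.86) was wider than that of 98.9% of the tested genes, and that of IGF2BP3 (5.99) wider than that of 98.0%.

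**Figure D2:**
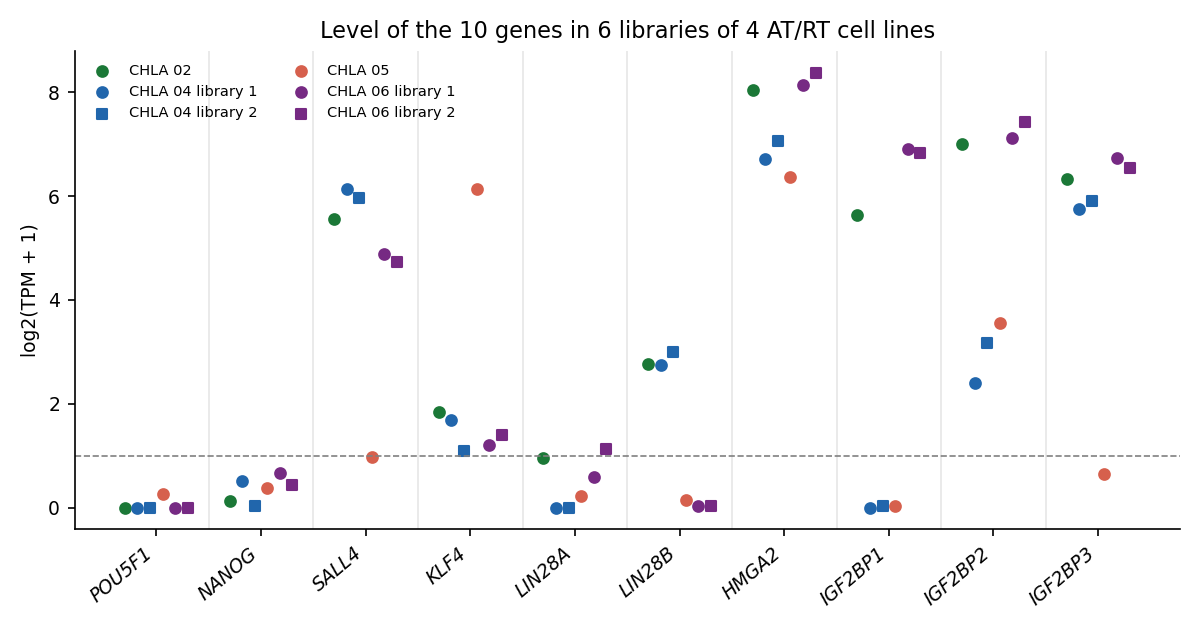
Level of the 10 genes as log2(TPM + 1) in the 6 libraries, with 1 color per cell line and a dashed line at 1 TPM. POU5F1, NANOG and LIN28A lie near the floor, CHLA 05 stands apart in SALL4, KLF4 and IGF2BP3, and the CHLA 02 and CHLA 06 libraries lie above the others in IGF2BP1 and IGF2BP2.

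**Figure D3:**
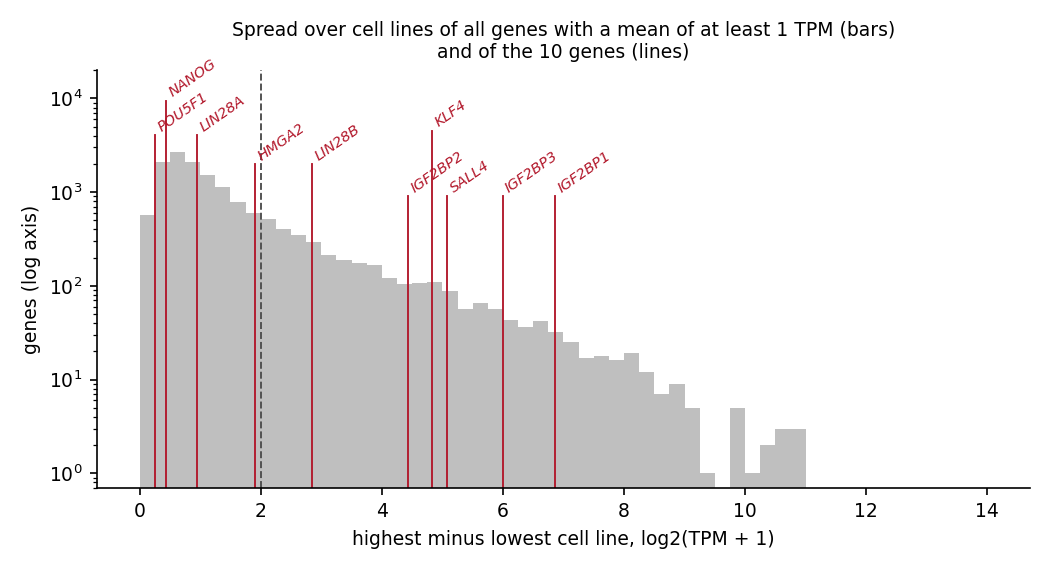
Number of genes (log axis) by the difference between the highest and the lowest cell line on the log2(TPM + 1) scale, for the 14827 genes with a mean of at least 1 TPM. Red lines mark the 10 genes and the dashed line marks a 4-fold difference, which 22.4% of the 14827 genes passed.

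Among the pluripotency factors, POU5F1 and NANOG were at the limit of detection. POU5F1 (ENSG00000204531, chromosome 6, 31164337 to 31180731, minus strand) had a single read in all 6 libraries together, in CHLA 05. A count of 0 allowed 3 reads. On the 791-base transcript that held the single read, these would be 0.444 to 0.897 TPM depending on the library, and less on the other, longer transcripts. TCF19, on the opposite strand and overlapping the end of POU5F1, was at 11.6 to 74.8 TPM. The libraries were stranded, but whether the counting used strand is not given in the sources used here.

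NANOG (ENSG00000111704, chromosome 12, 7787794 to 7799141, plus strand) had 1 to 7 reads per library, at 0.0865 TPM in CHLA 02, 0.424 and 0.0280 in the CHLA 04 libraries, 0.304 in CHLA 05, and 0.588 and 0.345 in the libraries from CHLA 06. The order of the lines lay within counting error at every step. Its retrogene NANOGP8 shared 573 of the 5510 windows of 125 bases in the NANOG transcripts (10.4%). NANOGP8 itself was at 2.53 and 2.83 TPM in CHLA 06, 18 and 22 reads, and at 0.660 TPM or less elsewhere. Reads of this pair cannot be told apart within the shared windows. POU5F1B, the copy of POU5F1, stayed at or below 0.153 TPM.

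SALL4 (ENSG00000101115, chromosome 20, 51782331 to 51802520, minus strand), a zinc finger transcription factor of stem cells, was high in 3 lines and nearly absent in the fourth. Its level was 46.0 TPM in CHLA 02, 69.5 and 61.8 in the CHLA 04 libraries, 0.970 in CHLA 05, and 28.6 and 25.7 in the libraries from CHLA 06. The 4 lines did not overlap at any step of their order, with counting intervals included. CHLA 04 was at 65.7 ± 5.44 TPM (SD, n = 2 technical replicates) and CHLA 05 had 26 reads, a ratio of 72.6 in reads per 1000000 (95% exact interval 49.5 to 111, counting error only). The transcript that carries its let-7 match was the most abundant in every library.

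KLF4 (ENSG00000136826, chromosome 9, 107484852 to 107490482, minus strand), a Krüppel-like factor also active in differentiated epithelia, had the opposite pattern in CHLA 05. It was at 69.3 TPM there, against 2.57 in CHLA 02, 2.22 and 1.13 in the CHLA 04 libraries, and 1.31 and 1.64 in the libraries from CHLA 06. CHLA 05 lay far above the other lines, whose values overlapped within counting error. The ratio of CHLA 05 to CHLA 06 was 45.3 in reads per 1000000 (95% exact interval 34.1 to 61.2). CHLA 05 was thus the line with the lowest SALL4 and the highest KLF4.

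LIN28A (ENSG00000131914, chromosome 1, 26410778 to 26429722, plus strand) was low in all lines. It was at 0.931 TPM in CHLA 02, 0.165 in CHLA 05, and 0.497 and 1.19 in the libraries from CHLA 06, from 24, 4, 14 and 38 reads. No read was counted in either CHLA 04 library. Set against a floor of 3 reads over both CHLA 04 libraries, the 24 reads of CHLA 02 gave a ratio of 13.5 in reads per 1000000. With the counting error of CHLA 02 included, CHLA 02 was at least 10.2-fold higher (lower limit of the 95% exact interval). The neighbouring lines in the order of LIN28A overlapped within counting error at each step.

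LIN28B (ENSG00000187772, chromosome 6, 104957048 to 105083332, plus strand) was the LIN28 gene with the higher level in 2 lines. Its level was 5.84 TPM in CHLA 02 and 5.76 and 7.0 in the CHLA 04 libraries, which overlapped. It was 0.111 TPM (4 reads) in CHLA 05 and 0.0235 and 0.0213 TPM (1 read each) in CHLA 06, which overlapped as well. The ratio of CHLA 04 to CHLA 06 was 284 in reads per 1000000 (95% exact interval 78.2 to 2357). On this per-length scale LIN28B exceeded LIN28A in CHLA 02 and CHLA 04, and LIN28A exceeded LIN28B in both CHLA 06 libraries. The coding sequences of LIN28A and LIN28B were identical at 69.3% of 597 aligned bases, and their transcripts shared no window of 125 bases.

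HMGA2 (ENSG00000149948, chromosome 12, 65824131 to 65966295, plus strand) was the most abundant member in every library. It had 263 TPM in CHLA 02, 104 and 133 in the CHLA 04 libraries, 81.2 in CHLA 05, and 283 and 333 in the libraries from CHLA 06. The order CHLA 06, CHLA 02, CHLA 04, CHLA 05 held with counting intervals included, which cover counting error only. The CHLA 04 replicates differed from each other by more than these intervals (98.7 to 109 and 128 to 137 TPM). So did the CHLA 06 replicates (277 to 288 and 327 to 339 TPM). CHLA 06 was at 308 ± 35.4 TPM (SD, n = 2 technical replicates) and CHLA 04 at 118 ± 20.4. The highest and lowest line differed by 1.91 on the log2(TPM + 1) scale, and by 2.02 without technical replicate 1 of CHLA 06, which passes the 4-fold limit. It also passed with median-of-ratios scaling (2.11), quantile normalization (2.07), the maximum of the replicates (2.02) and the most abundant transcript (2.58).

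The HMGA2 difference lay mainly in the transcripts that hold let-7 matches. Of 11 annotated HMGA2 transcripts, 2 were found to hold a match, and nearly all of their level was on ENST00000403681, the 5-exon transcript of 4473 bases. The 2-exon transcript of 1584 bases (9.77 to 23.9 TPM) had no 3′ UTR that could be searched and is counted with the remaining ones. Transcripts with a match were at 179 TPM in CHLA 02, 33.3 and 64.3 in the CHLA 04 libraries, 39.0 in CHLA 05, and 210 and 267 in the libraries from CHLA 06. The remaining transcripts summed to 84.1 TPM in CHLA 02, 70.6 and 68.4 in the CHLA 04 libraries, 42.2 in CHLA 05, and 72.8 and 65.4 in the libraries from CHLA 06. The share of HMGA2 on transcripts with a match was 68.0% in CHLA 02, 32.0% and 48.4% in the CHLA 04 libraries, 48.0% in CHLA 05, and 74.3% and 80.3% in the CHLA 06 libraries. CHLA 04 and CHLA 06 did not overlap in the transcripts with a match, while they did in the remaining ones. The division of reads among overlapping transcripts was made by the mapping program, and its error is unknown.

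**Figure D4:**
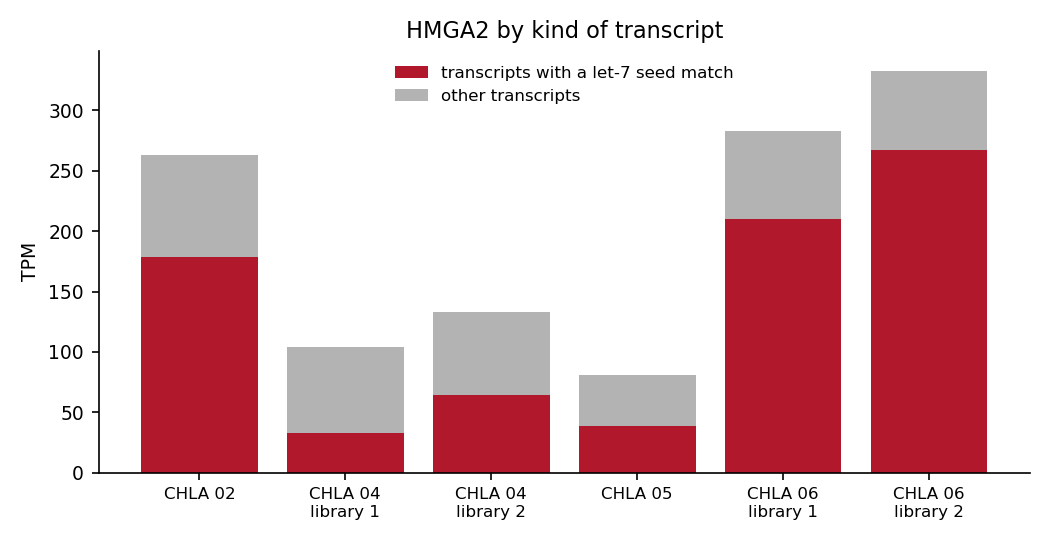
HMGA2 level in TPM in each library, divided into transcripts with a let-7 seed match (red) and other transcripts (grey), among them a transcript without a searchable 3′ UTR. The red part spans 33.3 to 267 TPM and the grey part 42.2 to 84.1 TPM.

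The IGF2BP family followed 2 patterns. IGF2BP1 and IGF2BP2 were high in CHLA 02 and CHLA 06 and low in CHLA 04 and CHLA 05, whereas IGF2BP3 was high in every line except CHLA 05. Their coding sequences were 69.3% to 69.9% identical in each pairwise alignment, with no window of 125 bases shared, so no read of this length matches more than 1 of the 3 genes exactly. Shorter reads left by trimming and inexact matches were not examined.

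IGF2BP1 (ENSG00000159217, chromosome 17, 48997412 to 49055650, plus strand) reached 48.9 TPM in CHLA 02 and 118 and 114 TPM in the CHLA 06 libraries. CHLA 04 had 0 and 1 read and CHLA 05 had 1 read, with measured values of 0.0185 TPM or below. Counting error allowed up to 0.0857 and 0.0992 TPM in the CHLA 04 libraries and 0.105 TPM in CHLA 05. CHLA 06 exceeded CHLA 04 by a ratio of 10643 in reads per 1000000, with a wide 95% exact interval of 1910 to 420387, since it rests on a single read. CHLA 06 and CHLA 02 did not overlap. The transcript with 4 let-7 matches held 96.2% to 96.9% of the IGF2BP1 level in CHLA 02 and CHLA 06.

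IGF2BP2 (ENSG00000073792, chromosome 3, 185643739 to 185825056, minus strand) had the same 2 lines at the top but was detected in all. It had 127 TPM in CHLA 02, 4.28 and 8.04 in the CHLA 04 libraries, 10.7 in CHLA 05, and 138 and 170 in the libraries from CHLA 06. CHLA 05 and CHLA 04 overlapped within counting error, and CHLA 06 exceeded CHLA 04 by a ratio of 27.2 in reads per 1000000 (95% exact interval 23.7 to 31.4).

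IGF2BP3 (ENSG00000136231, chromosome 7, 23310209 to 23470467, minus strand) had 79.0 TPM in CHLA 02, 52.9 and 58.9 in the CHLA 04 libraries, 0.571 in CHLA 05 (5 reads), and 106 and 92.3 in the libraries from CHLA 06. No neighbouring lines overlapped when counting error alone was considered. The CHLA 06 replicates differed from each other by more than these intervals (102 to 110 and 89.0 to 95.7 TPM). CHLA 06 exceeded CHLA 05 by a ratio of 507 in reads per 1000000 (95% exact interval 217 to 1563). The ratio of the TPM values was 174, since the 5 reads of CHLA 05 fell partly on short transcripts. MALSU1, which overlaps the end of IGF2BP3 on the opposite strand, was at 14.7 to 18.9 TPM in all libraries, CHLA 05 included.

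**Figure D5:**
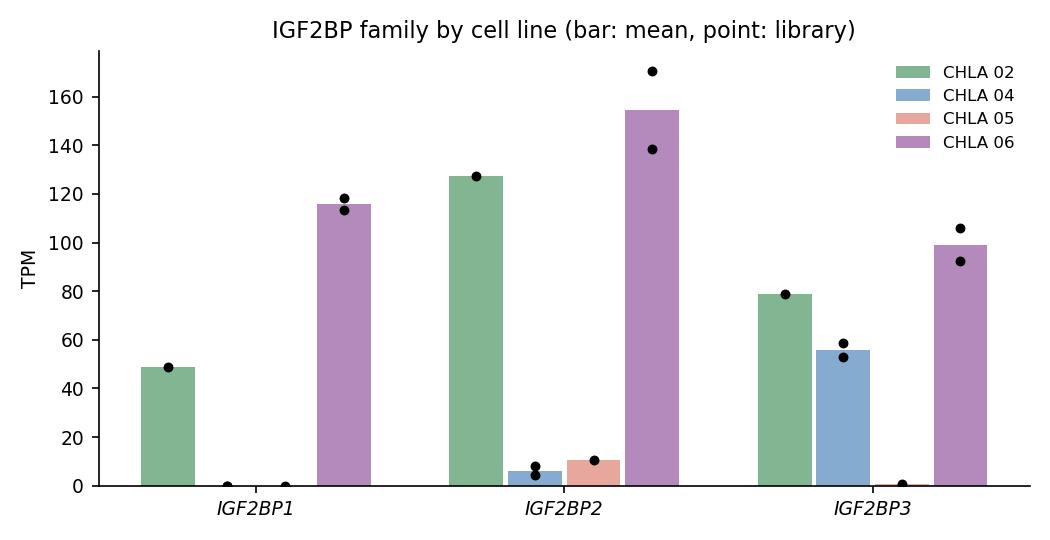
TPM of IGF2BP1, IGF2BP2 and IGF2BP3 in the 4 cell lines, with bars for the mean of the libraries and points for single libraries. IGF2BP1 is near 0 in CHLA 04 and CHLA 05, and IGF2BP3 is near 0 in CHLA 05 alone.

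Between pairs of lines, the members were counted as differing when their means were at least 2-fold apart on the log2(TPM + 1) scale, beside the share of the 14827 tested genes that did so in the same direction. CHLA 05 was lower than CHLA 02 in 6 members (all genes, 11.6%) and higher in 1, KLF4 (12.7%). CHLA 06 was higher than CHLA 05 in 5 members (11.6%) and lower in 1 (19.2%). CHLA 05 was lower than CHLA 04 in 3 members (9.40%), namely SALL4, LIN28B and IGF2BP3, and higher in 1 (11.6%). These comparisons share the CHLA 05 library, so their counts are not separate evidence. CHLA 04 was lower than CHLA 02 in 3 members (10.9%), HMGA2, IGF2BP1 and IGF2BP2, and higher in none (11.2%). Without technical replicate 1 of CHLA 04, HMGA2 no longer passed and 2 members remained. CHLA 06 and CHLA 02 were the most similar, with IGF2BP1 higher in CHLA 06 (2.94%) and LIN28B lower (10.1%). The members that passed in the CHLA 06 and CHLA 04 comparison were HMGA2, IGF2BP1 and IGF2BP2, higher in CHLA 06 (14.6%), and SALL4 and LIN28B, lower (21.3%). Counted in either direction, the members numbered 3 for CHLA 04 and CHLA 02 (all genes, 22.0%), 7 for CHLA 05 and CHLA 02 (24.4%) and 2 for CHLA 06 and CHLA 02 (13.0%). They numbered 4 for CHLA 05 and CHLA 04 (21.0%), 5 for CHLA 06 and CHLA 04 (35.9%) and 6 for CHLA 06 and CHLA 05 (30.8%).

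CHLA 04 and CHLA 06 were the lines with a technical replicate. In 5 of the 10 members, both libraries of one line lay above both of the other with means at least 2-fold apart, against 35.8% of all tested genes. IGF2BP3 also did not overlap but was 0.82 apart on the log2 scale, and it passed with quantile normalization or median-of-ratios scaling, which raised the count to 6. Over all tested genes the median difference of CHLA 06 minus CHLA 04 was -0.22. CHLA 02 lay between CHLA 04 and CHLA 06 in all 5 of these members, as it did in 88.5% of the 5327 genes that differed 2-fold between the latter lines, so the intermediate position was not particular to the members.

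Regulators of let-7 maturation were expressed in all lines. All 22 genes of the list had a mean of at least 1 TPM, and 4 (TRIM71, MSI1, MSI2 and AGO3) passed the 4-fold spread. These 4 were 18.2% of the list, against 22.4% of all tested genes. The median spread of the list was 0.85, against 0.99 over all tested genes. TRIM71, an RNA-binding ubiquitin ligase that is itself a let-7 target, was at 19.4 TPM in CHLA 02, 49.5 (mean) in CHLA 04, 31.2 in CHLA 05 and 1.90 (mean) in CHLA 06. MSI1, an RNA-binding protein of neural progenitors that acts with LIN28 on let-7 precursors, was at 109, 272, 236 and 8.23 TPM in the same order. MSI2 was at 119, 276, 400 and 29.1 TPM. In these 3 genes CHLA 06 was the lowest line. The most abundant genes of the list were HNRNPA1 (1410 to 1976 TPM), ADAR (286 to 543 TPM) and RAN (293 to 427 TPM), with log2 spreads of 0.49, 0.92 and 0.54.

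Of 20 symbols listed as let-7 genes or host transcripts, 7 were measured and 6 had a mean of at least 1 TPM. Of these 6, 1 (16.7%) passed the 4-fold spread, against 22.4% of all tested genes. MIRLET7BHG was at 40.5 TPM in CHLA 02, 83.4 (mean) in CHLA 04, 33.4 in CHLA 05 and 35.7 (mean) in CHLA 06. MIR99AHG, which spans let-7c, was at 131, 185, 83.6 and 110 TPM. MIR100HG, the host of let-7a-2, was at 4.51, 8.58, 6.69 and 0.910 TPM and was the only one of these transcripts past the 4-fold spread. Levels of a host transcript are not levels of mature let-7.

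Other known let-7 targets followed no single pattern. Of 30 listed genes, 28 had a mean of at least 1 TPM and 12 of these (42.9%) passed the 4-fold spread, with a median spread of 1.55. Over all tested genes the share was 22.4% and the median spread 0.99. HMGA1, the paralog of HMGA2, was at 373 TPM in CHLA 02, 27.2 (mean) in CHLA 04, 40.7 in CHLA 05 and 370 (mean) in CHLA 06. MYC was at 79.7, 0.775, 1.44 and 83.1 TPM in the same order, so that HMGA1 and MYC were high in the lines with high IGF2BP1 and IGF2BP2. MYCN was lowest in CHLA 06 and highest in CHLA 05, at 26.3, 91.2, 109 and 0.0698 TPM. IRS2, an adaptor of insulin signaling, was at 32.2, 83.6, 126 and 0.103 TPM. RRM2, a subunit of ribonucleotide reductase, differed little in the line means (203 to 274 TPM). Its technical replicates differed more, at 207 and 340 TPM in CHLA 04 and 130 and 400 TPM in CHLA 06.

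Beyond the members, the pluripotency network was largely silent. Of 38 listed genes, 23 were below 1 TPM in every line and 10 of these, including ZFP42, TDGF1, PRDM14 and DNMT3L, had no read. The 14 with a mean of at least 1 TPM included 8 past the 4-fold spread (57.1%, against 22.4% of all tested genes). SALL3, a relative of SALL4, was at 1.17 TPM in CHLA 02, 2.92 (mean) in CHLA 04, 78.8 in CHLA 05 and 0 (mean) in CHLA 06, and was thus highest in the line where SALL4 was lowest. The broadly expressed SALL2, NACC1 and RIF1 were the most abundant of the list. None of the 10 pluripotent cell markers, which include POU5F1, NANOG and LIN28A, reached 1 TPM in any line, and 6 had no read. Their summed level was 0.438 to 1.34 TPM. SOX2, shared with neural progenitors, was at 4.03 TPM in CHLA 05 and 0.322 TPM or below in the others.

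Messages and partners of the IGF2BP proteins were mostly even between lines, at levels that ranged from near the floor to high. Of 21 listed genes, 18 had a mean of at least 1 TPM, 3 of these (MYC, CD44 and ELAVL2) passed the 4-fold spread, and the median spread was 0.77. Those 3 were 16.7% of the 18, against 22.4% of all tested genes, where the median spread was 0.99. CD44, an adhesion receptor whose message is bound by the family, was at 16.8 TPM in CHLA 02, 0.334 (mean) in CHLA 04, 6.18 in CHLA 05 and 46.0 (mean) in CHLA 06. IGF2, for which the family is named, was at 0.344 to 1.99 TPM.

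Markers of other cell types differed between the lines along with some members. Of 10 fibroblast markers, CHLA 02 and CHLA 06 had 8 each at 1 TPM or more, CHLA 04 had 5 and CHLA 05 had 7. Their summed level was 1359 TPM in CHLA 02, 218 (mean) in CHLA 04, 278 in CHLA 05 and 1601 (mean) in CHLA 06. CHLA 06 and CHLA 02 were also the highest lines in IGF2BP1, IGF2BP2 and MYC. COL1A1 was at 387, 1.72, 11.5 and 530 TPM, and COL3A1 at 841, 1.57, 9.0 and 980 TPM. These genes carried most of the summed level in CHLA 02 and CHLA 06. DCN, LUM and THY1 were likewise highest in CHLA 06 and next highest in CHLA 02. Other markers of the list went the other way, with FBLN1 at 86.8, 189, 205 and 28.6 TPM and PDGFRA at 4.30, 14.4, 24.9 and 2.61 TPM. COL1A2 was highest in CHLA 05 and lowest in CHLA 06, at 1.36, 0.452, 7.12 and 0.0129 TPM. DPT was at 0 in all lines, LUM in CHLA 04 and DCN in CHLA 05. Neural progenitor markers at or above 1 TPM numbered 8 of 10 in CHLA 02, 9 in both CHLA 04 and CHLA 05, and 3 in CHLA 06, with FABP7 at 756, 3169, 1400 and 0.995 TPM. VIM, of the same list, was lowest in CHLA 04 and highest in CHLA 06, at 13742, 4809, 8430 and 17086 TPM in the same order. It carried the summed level of the list (8531 to 17104 TPM), which was likewise lowest in CHLA 04 and highest in CHLA 06. Of 10 neuron markers, 5, 6, 7 and 4 reached 1 TPM. For leukocytes and for fetal liver and yolk sac, none of 10 markers each reached 1 TPM in any line. Germ cell markers reached 1 TPM in at most 2 of 10 and endothelial markers in at most 3. The part of any of these differences in the levels of the members was not tested.

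For each member past the 4-fold spread, the 3 genes with the most similar pattern were taken by the root mean square difference of centered log2(TPM + 1) values over the 4 lines, among 14826 genes. IGF2BP1 was closest to LHX8 (0.08), KRT19 (0.13) and F5 (0.13). LHX8 had no read in CHLA 04 or CHLA 05 and reached 48.2 TPM in CHLA 02 and 100 in CHLA 06. IGF2BP2 was closest to GJA3 (0.06), RERG (0.08) and FOXQ1 (0.12). LIN28B was closest to DNAJC12 (0.04), C5orf30 (0.05) and CALN1 (0.07), and SALL4 to PRUNE2 (0.10), RP11-313J2.1 (0.11) and PLAT (0.21). The KLF4 pattern was most like that of NETO1 (0.10), BMPR1B (0.15) and ITGB4 (0.18). IGF2BP3 had no gene as near, with METTL24 at 0.36, LGALS3 at 0.52 and ANXA4 at 0.54. With 4 lines many genes lie close by, and only 6 of the 18 names stayed with a pseudocount of 0.1.

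Long terminal repeat (LTR) elements, the other measurement of the series, gave reads inside the members from a separate mapping. Their scale covers LTR elements alone and is not comparable with gene TPM. HMGA2 held 8 LTR elements with 221 to 630 reads per library. Most of these lay on 4 THE1A pieces in sense within an intron, from 65920470 to 65923061 of chromosome 12. In LTR reads per 1000000, these 4 pieces were at 1018 in CHLA 02, 1441 and 1079 in the CHLA 04 libraries, 464 in CHLA 05, and 1197 and 1132 in the libraries from CHLA 06. CHLA 05 was the lowest line, as in HMGA2 itself, but CHLA 04 and CHLA 06 overlapped, unlike in the HMGA2 level.

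IGF2BP3 held an LTR12 element in sense within an intron (chromosome 7, 23406352 to 23406953). It had 51 reads in CHLA 02, 32 and 35 in the CHLA 04 libraries, 0 in CHLA 05, and 57 and 58 in the libraries from CHLA 06. The CHLA 05 count of 0 allows up to 7.25 LTR reads per 1000000, against 68.4 to 127 LTR reads per 1000000 in the other libraries. Over all 21 LTR elements of IGF2BP3 there were 62 reads in CHLA 02, 48 in each library of CHLA 04, 5 in CHLA 05, and 72 and 95 in the libraries from CHLA 06. LIN28B held 18 elements with 24 reads in CHLA 02, 15 and 28 in the CHLA 04 libraries, 3 in CHLA 05, and 0 and 1 in the libraries from CHLA 06. IGF2BP2 held 15 elements with 40 reads in CHLA 02, none in either library of CHLA 04, 1 in CHLA 05, and 25 and 32 in the libraries from CHLA 06. In these 3 genes the lines with the higher gene level had at least 15 LTR reads per library, and the other lines had at most 5. NANOG, SALL4, KLF4, LIN28A and IGF2BP1 held no annotated LTR element.

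Genes that overlap members on the opposite strand were low at HMGA2 and IGF2BP1. RP11-366L20.2, antisense within HMGA2, had 1.30 TPM in CHLA 02, 5.55 and 8.88 in the CHLA 04 libraries, 4.15 in CHLA 05, and 0.168 and 0.0254 in the libraries from CHLA 06. It was lowest in CHLA 06, where HMGA2 was highest. RPSAP52, at the start of HMGA2, was at 0.512 to 4.56 TPM. RP11-501C14.5, opposite the start of IGF2BP1, had reads only in CHLA 02 and CHLA 06 (4 to 7 per library), the lines with IGF2BP1. IGF2BP2-AS1 had 1 and 3 reads in CHLA 06 and none elsewhere. Without a stated strand setting, reads of such partners cannot be told apart from those of the members.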

How the data were processed

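Libraries were made from total RNA with the TruSeq Stranded Total RNA protocol and sequenced as paired 125-base reads. After trimming in Trimmomatic, reads were mapped by the authors against GRCh38 (Ensembl release 82) in CLCbio Genomics Workbench with default settings. The deposited values are TPM per Ensembl transcript and, from a separate mapping, TPM per LTR element. CASAVA 1.8.2 and FastQC are named in the submitters' processing notes, and the versions of the other programs are not given in the sources used here. Gene TPM was summed over transcripts, and technical replicates were averaged per line. Reads were recovered as TPM times length over the value of 1 read, with at least 99.6% whole within 0.05. Recovery and calls were checked on simulated data. Wilson and exact conditional intervals (95%) cover counting error only. A count of 0 was taken to allow 3 reads. Differences are on the log2(TPM + 1) scale, which understates low genes, and the background was genes with a mean of at least 1 TPM. Of 73 member transcripts in the tables, 71 are in GENCODE v44 and 61 have identical exons there. 3′ UTRs and coding sequences were read from it, and coding sequences stood in for proteins. Python 3.11.15, pandas 2.3.3, SciPy 1.17.1 and Biopython 1.88 were used.

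The members and lists were chosen with earlier results of these data known. Named genes were all members, overlapping genes with a read, copies, the 3 most abundant and 3 most variable genes of each list, from which the text gives a selection (1 gene is not reported here), and the 3 genes most like each member past the 4-fold spread. AGO3, DPT, LUM, PDGFRA, COL1A2, THY1, IGF2, SOX2, ZFP42, TDGF1, PRDM14, DNMT3L and the genes with 4 let-7 matches were named after their values were seen. Alternatives were other pseudocounts, filters, limits, scalings and single transcripts.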

Additional observations from a re-analysis of the deposited data

How the results depend on the processing

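No paired analysis was possible because each line was 1 biological sample and technical replicate numbers do not link CHLA 04 with CHLA 06. None of the 100 recomputed log2 differences of highest and lowest line reversed, and 19 moved by more than the technical or counting spread, most with another pseudocount. The share of all genes past 4-fold fell from 22.4% to 14.8% with no filter on low values, since genes near 0 then enter. Leaving out single replicates gave 7 to 8 members at 1 TPM (LIN28A joins without technical replicate 1 of CHLA 06), 6 to 7 past 4-fold and 22.0% to 23.9% of all genes. For 2-fold pairs it gave 2 to 3 members for CHLA 04 and CHLA 02, 4 to 5 for CHLA 05 and CHLA 04, 5 to 6 for CHLA 06 and CHLA 04, 7 for CHLA 05 and CHLA 02, 2 for CHLA 06 and CHLA 02, and 6 for CHLA 06 and CHLA 05. With a pseudocount of 0.1 all 10 members passed for CHLA 05 and CHLA 02. Taking the longest 3′ UTR, an alternative added after seeing the data, left 6 members with a let-7 match, since the longest 3′ UTR of HMGA2 has none. Requiring an A after the match left 7. Depth limits POU5F1, NANOG and LIN28A, whose values rest on 0 to 38 reads.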
